A study of Mus musculus with 14 samples.

Results

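The transcriptional response to transient cerebral ischemia was compared between wild-type (Cort+/+) and cortistatin-deficient (Cort-/-) mice, gene by gene, to ask whether the brain without cortistatin responds with other genes or with the same genes at another amplitude. For each gene, the ischemic response was the mean log2(RPKM + 0.1) of the hemisphere subjected to middle cerebral artery occlusion (MCAO) minus that of the contralateral hemisphere (CL), so that a value of 1 corresponds to a doubling. RPKM is the number of reads per kilobase of transcript, scaled to the sequencing depth of the library. Of 46904 genes in the table, 46102 had reads in at least 2 libraries and were tested, and the 15063 with a mean of at least 1 RPKM form the set described here. All 14 libraries of the series were used. Cort+/+ mice gave 3 libraries for CL and 3 for MCAO, and Cort-/- mice gave 3 for CL and 5 for MCAO.

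Animals of both genotypes were 12 weeks old on a C57BL/6J background. The left middle cerebral artery was closed for 20 min with a filament, and brain hemispheres were collected after 48 h. Every group therefore comes from operated mice, and no sham-operated brain enters the comparison. The Cort-/- mice lack the cortistatin gene in all cells. Whole hemispheres were sequenced, so lesioned and spared tissue are mixed in each MCAO library. Whether CL and MCAO libraries came from the same animals is not stated. Where replicates varied widely, the authors kept those that grouped clearly. They count 5 replicates for MCAO without separating the genotypes, whereas the Cort+/+ MCAO libraries of the series are only 3, numbered 2, 3 and 4. It is not stated if other Cort+/+ MCAO libraries were left out on this ground. The spread of that group, and comparisons that use it, may therefore rest on a selected set.

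Cortistatin is a neuropeptide related to somatostatin, made mainly by inhibitory interneurons of the cortex and hippocampus, that binds somatostatin receptors and dampens both neuronal firing and inflammation. After a stroke, dying neurons release danger signals, microglia and astrocytes become reactive, type I interferon and chemokine programmes are switched on, and some glial and vascular cells divide. The territory of the middle cerebral artery includes the striatum, whose principal cells are GABAergic medium spiny neurons.

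The targeted gene was read first. Cort (chr4:149209491-149211266, GRCm39) had 64, 133 and 139 reads in the Cort+/+ CL libraries and 108, 93 and 81 in the Cort+/+ MCAO libraries. In Cort-/- libraries it had 0, 1 and 0 reads in CL and 0, 4, 1, 0 and 1 in MCAO. The genotypes did not overlap. In Cort+/+ mice, the response of Cort itself was -0.16 (SE 0.36) on the log2 scale (limma, adjusted p = 0.967), and its ischemic response in Cort-/- mice has no meaning at these counts.

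Between 25989673 and 43032291 reads per library fell on genes (median 36026772). Microglial markers (3 genes, summed) ranged from 33.0 to 42.8 RPKM in Cort+/+ MCAO and from 34.6 to 48.5 RPKM in Cort-/- MCAO libraries, against 24.4 to 28.2 RPKM over all CL libraries. Markers of neurons ranged from 1054 to 1280 and from 1065 to 1166 RPKM in MCAO, against 1264 to 1595 and 1235 to 1347 RPKM in CL. In these bulk samples, fewer cells of a type and less RNA per cell cannot be told apart. Hemoglobin genes were uneven between groups and summed to 115 to 299 RPKM in Cort+/+ CL and to 83.0 to 129 RPKM in Cort-/- CL libraries. Neutrophil markers were uneven in the other direction, with 2.08 to 3.68 RPKM in Cort+/+ CL and 3.83 to 8.12 RPKM in Cort-/- CL libraries, without overlap, and 2.17 to 3.99 and 2.87 to 13.5 RPKM in MCAO. T cell markers summed to 1.00 to 1.13 RPKM in Cort+/+ CL and to 1.65 to 1.67 RPKM in Cort+/+ MCAO libraries. In Cort-/- mice they summed to 0.967 to 1.68 RPKM in CL and to 1.06 to 1.88 RPKM in MCAO libraries. The part of hemoglobin, neutrophil or T cell RNA in the results was not tested.

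Single libraries of each group stood apart in how far they had moved. Each library was placed on the average response of both genotypes over the 15063 genes, on a scale where 0 is the mean of the CL libraries of its genotype and 1 the mean of the MCAO groups. Among Cort+/+ MCAO libraries, replicates 2, 3 and 4 lay at 0.928, 1.21 and 0.562. The 5 Cort-/- MCAO libraries lay at 1.40, 0.952, 0.730, 1.35 and 1.08. The ranges overlapped, with the weakest response in Cort+/+ MCAO 4 and the next weakest in Cort-/- MCAO 3. The CL libraries spread from -0.119 to 0.211. Cort+/+ CL 1 (0.211) and Cort-/- CL 2 (0.132) were displaced towards MCAO: Gfap, the intermediate filament of astrocytes, stood at 132 RPKM in Cort+/+ CL 1 and 110 RPKM in Cort-/- CL 2, against 37.9 to 55.4 RPKM in the other CL libraries.

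**Figure D1:**
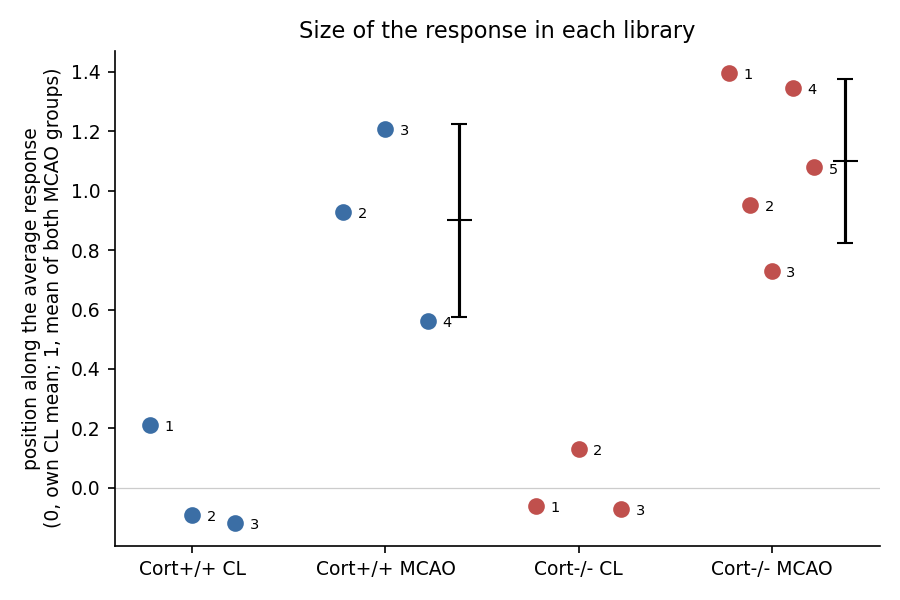
Position of each of the 14 libraries along the average ischemic response (vertical axis, no unit, 0 = mean of the CL libraries of the genotype, 1 = mean of the MCAO groups), by group (horizontal axis); points carry replicate numbers and bars give the mean ± SD of the MCAO groups. Cort-/- MCAO libraries run from 0.730 to 1.40 and Cort+/+ MCAO libraries from 0.562 to 1.21, so the groups overlap.

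Most genes had the same direction of response in both genotypes, and most of those with a positive response had the larger mean in Cort-/- mice. Over the 15063 genes the responses had a Pearson correlation of 0.780 and a Spearman correlation of 0.625, and 75.8% of genes had the same sign. These correlations describe genes, which share the same libraries, and are not a test. Among the 12849 protein-coding genes the correlation was 0.911, whereas among the 2214 other genes, which include many short and weakly expressed RNAs, it was 0.342. It increased with expression, from 0.719 among genes of 1 to 3 RPKM to 0.895 among the 503 genes above 100 RPKM. The SD of the response over genes was 0.279 in Cort+/+ and 0.333 in Cort-/- mice.

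A common scale factor was estimated by Deming regression, which allows for error in both responses (error variance ratio 0.8, from the group sizes). The Cort-/- response was 1.29 times the Cort+/+ response on the log2 scale. The estimate depended on how error is assigned, since ordinary regression of the Cort-/- on the Cort+/+ response gave 0.933 and the reverse regression, inverted, gave 1.53. In bands of mean RPKM the factor stayed between 1.22 and 1.35, and it was 1.28 over genes with a positive average response. Over the 8812 genes with a negative one it was 2.30, and with a replicate block, in the libraries whose numbers recur, it was 0.857.

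Among genes with an average response above 0.25, the ratio of the median responses lay between 1.18 and 1.37. Of the 46 genes whose average response exceeded 2, the median was 2.35 in Cort+/+ and 2.76 in Cort-/- mice, and 80.4% had the larger response in Cort-/- mice. The 209 genes between 1 and 2 had medians of 1.18 and 1.48, and 90.0% of them were larger in Cort-/- mice. Between 0.5 and 1 (337 genes) the medians were 0.59 and 0.80. On the negative side, genes between -0.5 and -0.25 had medians of -0.27 and -0.35, and 67.5% moved further in Cort-/- mice. The 105 genes between -1 and -0.5 had medians of -0.62 and -0.67, and 59.0% moved further in Cort-/- mice. The bands were formed on the average of both responses.

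**Figure D2:**
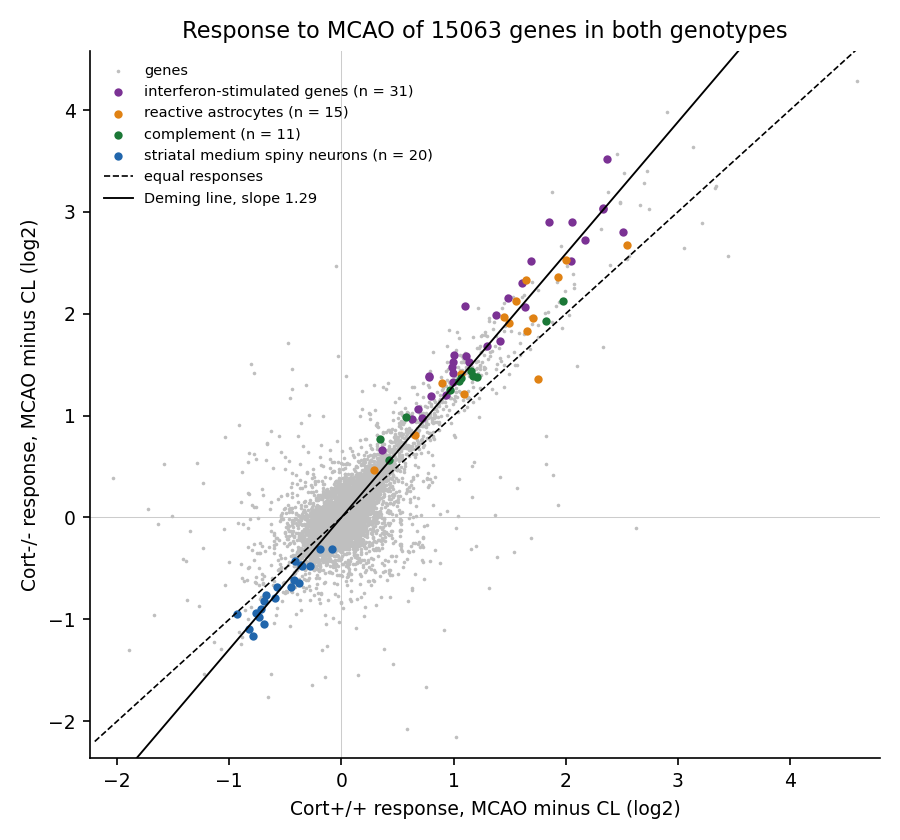
Ischemic response of 15063 genes in Cort+/+ (horizontal) and Cort-/- mice (vertical), both as MCAO minus CL in log2(RPKM + 0.1); 4 gene lists are coloured, the dashed line marks equal responses and the solid line the Deming factor of 1.29. Of the 209 genes with an average response between 1 and 2, 90.0% lie above the dashed line, and all 20 striatal genes lie below it.

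A single factor is only as firm as the libraries behind it. The 5 Cort-/- MCAO libraries taken one at a time against the Cort+/+ response gave factors of 1.70, 1.09, 0.919, 1.82 and 1.32 (1.37 ± 0.386, SD, n = 5). Cort+/+ MCAO 2, 3 and 4, taken one at a time against the Cort-/- response, gave factors of 1.22, 0.897 and 2.23. Of the 15 pairings of 1 library per genotype, 10 gave a factor above 1, with a range of 0.585 to 3.37 and a median of 1.24. Without single libraries the factor ranged from 1.05 (without Cort+/+ MCAO 4) to 1.59 (without Cort+/+ MCAO 3), and it was 1.11 without Cort+/+ CL 1. Without both Cort+/+ CL 1 and Cort+/+ MCAO 4 the factor was 0.926, and without both Cort-/- CL 2 and Cort-/- MCAO 3 it was 1.57.

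The amplitude was then compared over libraries. The mean position along the average response was 1.10 ± 0.277 (SD, n = 5) in Cort-/- MCAO and 0.900 ± 0.324 (SD, n = 3) in Cort+/+ MCAO. The difference of 0.200 did not pass a two-sided permutation test of these positions over the 8 libraries (p = 0.393, 56 arrangements, smallest possible p 0.0179). The test held the CL means and the average response fixed, although both come from these same libraries. It therefore leaves out the spread of the CL libraries, and its p is approximate. The difference was -0.00762 without Cort+/+ MCAO 4 (same permutation test, p = 0.952) and 0.0318 without Cort+/+ CL 1. The difference in amplitude was within the spread between libraries of each genotype.

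**Figure D3:**
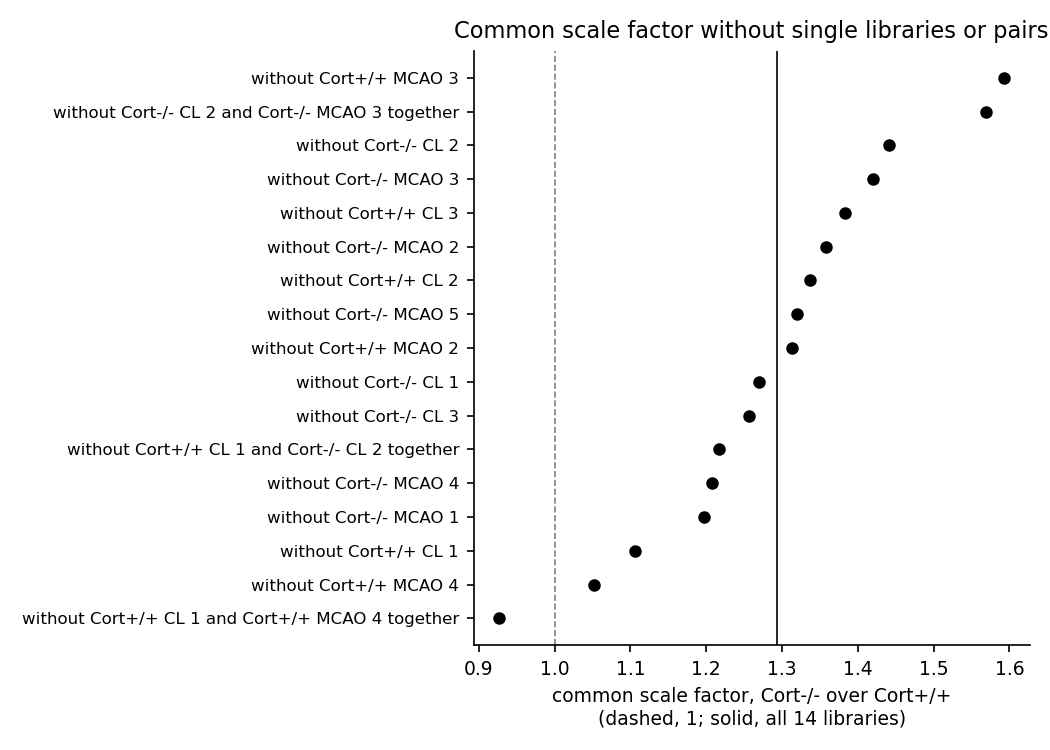
Common scale factor of the ischemic response, Cort-/- relative to Cort+/+ (horizontal axis, no unit), with all 14 libraries and without single libraries or pairs. Single omissions range from 1.05 to 1.59, and without Cort+/+ CL 1 and Cort+/+ MCAO 4 together the factor falls to 0.926, below equality.

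The difference of differences (Cort-/- response minus Cort+/+ response) was tested for each gene with limma over all 46102 genes. At an adjusted p under 0.05, 0.00217% of genes were called, which is 1 gene (Gm55190, with at most 1 read per library, named here for that count), and none of the 15063 genes of at least 1 RPKM was. Among those 15063, the lowest adjusted p was 1.00, and 212 genes (1.41%) had an unadjusted p under 0.05, 92 with a higher and 120 with a lower response in Cort-/- mice. For the departure from the common scale (Cort-/- response minus 1.29 times the Cort+/+ response) the figures were likewise 0.00217% overall and none of the 15063, with 155 genes (1.03%) at an unadjusted p under 0.05. The voom method on recovered reads also called none in either test, with 133 and 82 genes at an unadjusted p under 0.05. The mean squared difference of differences was 0.0439, against 0.0675 given by the spread between libraries alone, and the mean squared departure was 0.0538 against 0.0928. Between the 5th and the 95th percentile the difference of differences ran from -0.24 to 0.27.

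The number of genes called within a genotype differed far more than the responses did. Over all 46102 genes, limma called 0.0108% in Cort+/+ and 1.72% in Cort-/- mice at an adjusted p under 0.05. Of the 15063, 614 (4.08%) passed in Cort-/- mice, of which 459 (3.05%) were higher and 155 (1.03%) lower in MCAO. In Cort+/+ mice 3 genes (0.0199%) passed, all of them higher, and 1817 genes had an unadjusted p under 0.05, against 3698 in Cort-/- mice. The genotypes have 3 and 5 MCAO libraries, so these counts do not compare like with like. The 459 genes higher in Cort-/- MCAO had a median of 0.94 in that genotype and of 0.68 in Cort+/+ mice. The medians of the 155 lower genes were -0.33 and -0.20. Of the 614, 99.5% had the same sign in Cort+/+ mice. They were chosen on the Cort-/- response, which enlarges its median.

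Among the largest positive responses of both genotypes were Tgm1, Lgals3, Spp1, Cst7 and Lilrb4a. Tgm1, a transglutaminase that crosslinks proteins at the cell surface, had 0.412, 0.0288 and 0.00891 RPKM in Cort+/+ CL and 5.81, 5.70 and 2.90 RPKM in Cort+/+ MCAO libraries. In Cort-/- mice it had 0.116, 0.780 and 0.154 RPKM in CL and 7.84, 5.98, 4.38, 12.5 and 6.46 RPKM in MCAO. Every MCAO library exceeded every CL library, but with all CL libraries under 1 RPKM the gene entered the set only through MCAO. Its response was 4.60 (SE 0.62, limma, adjusted p = 0.0471) in Cort+/+ and 4.28 (SE 0.55, adjusted p = 0.0070) in Cort-/- mice, with a difference of -0.32 (SE 0.83, unadjusted p = 0.707) whose sign turned with a pseudocount of 1 and without Cort-/- CL 2 or Cort+/+ CL 3. Lgals3, the galectin of phagocytes, responded by 3.13 and 3.64, and Spp1, which encodes osteopontin, by 2.70 and 3.28. The Spp1 levels were 72.8, 154 and 22.4 RPKM in Cort+/+ MCAO and 164, 68.8, 50.1, 166 and 83.7 RPKM in Cort-/- MCAO libraries, from 7.36 to 12.7 RPKM in CL. Cst7, an inhibitor of lysosomal cathepsins, and Lilrb4a, an inhibitory receptor of myeloid cells, had responses of 3.22 and 3.33 in Cort+/+ mice and of 2.89 and 3.24 in Cort-/- mice, with differences of -0.32 (SE 0.89) and -0.10 (SE 1.03). Lgals3 and Cst7 also had a mean under 1 RPKM over the CL libraries and entered the set only through MCAO. The sign of the difference turned for Spp1 without Cort+/+ MCAO 4, for Lgals3 without Cort-/- CL 1, and for Cst7 and Lilrb4a without Cort-/- CL 2 or without Cort+/+ MCAO 3, among other settings.

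Gene lists were described by their members above 1 RPKM, their medians and their counts. Over all 15063 genes, limma called 3.05% higher and 1.03% lower in Cort-/- mice and 0.0199% in Cort+/+ mice. The calls in each list are to be read beside these shares. For reference, 45.1% of all 15063 genes had a difference of differences above 0 and 45.7% a departure above 0, with medians of -0.01 for both. Among genes with an average response of 0.5 to 1, 1 to 2 and above 2, the share larger in Cort-/- mice was 85.5%, 90.0% and 80.4%. Between -1 and -0.5, 59.0% moved further in Cort-/- mice. Counts in lists that rise or fall strongly are to be read beside these shares, not beside 45.1%. Members with a mean under 1 RPKM over the CL libraries entered only through their MCAO libraries and had to be higher there, so the medians and calls within a genotype are, for such members, a description of what the filter admits. They were 15 of 31 interferon-stimulated, 7 of 9 chemokine, 7 of 8 mitosis, 4 of 7 MHC class II, 5 of 14 DNA replication and 5 of 20 extracellular matrix genes, and at most 3 in any other list. Irf7, Rsad2, Psmb9, C3ar1, Clcf1 and Atf3, whose responses are given below, were among such members.

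Among the immune lists with at least 5 members, interferon-stimulated genes had the largest median difference. All 31 members had the larger response in Cort-/- mice, with medians of 1.13 and 1.68 and a median difference of 0.49, and 24 of 31 lay above the common scale (median departure 0.16). Of the 31, 18 passed limma in Cort-/- mice, where 3.05% of all 15063 genes were called higher. None passed in Cort+/+ mice, and none in the difference of differences even without adjustment. The calls were not split by CL level, and 15 of the 31 entered only through MCAO. The 16 members above 1 RPKM in CL had medians of 0.99 and 1.50 and a median difference of 0.40. As the members are induced together, the 31 are not independent observations.

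Isg15, a ubiquitin-like modifier and the member with the largest average response, had 1.84, 0.864 and 0.915 RPKM in Cort+/+ CL and 4.67, 20.8 and 2.53 RPKM in Cort+/+ MCAO libraries. Cort-/- libraries held 0.949, 0.855 and 0.835 RPKM in CL and 20.2, 10.7, 2.37, 16.8 and 19.4 RPKM in MCAO. The genotypes overlapped after MCAO, since Cort+/+ MCAO 3 was the highest of the 8 libraries and Cort-/- MCAO 3 the lowest. Its response was 2.37 (SE 0.79, adjusted p = 0.394) in Cort+/+ and 3.52 (SE 0.70, limma, adjusted p = 0.0277) in Cort-/- mice. The difference was 1.15 (SE 1.05, unadjusted p = 0.295) and ranged from 0.51 to 2.00 without single libraries. Ifit3, which restricts viral RNA translation and whose reads may be shared with its close copy Ifit3b, overlapped likewise, with 10.3, 30.5 and 5.41 RPKM in Cort+/+ MCAO and 30.1, 16.5, 8.91, 28.2 and 32.6 RPKM in Cort-/- MCAO libraries. Its response was 1.69 and 2.52 (difference 0.82, SE 0.77). Irf7, the transcription factor that amplifies interferon production, responded by 2.33 and 3.04.

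Over the list, the mean log2 level was 1.47, 2.75 and 0.92 in Cort+/+ MCAO replicates 2, 3 and 4, and 2.75, 2.02, 1.08, 2.61 and 2.75 in Cort-/- MCAO replicates 1 to 5. Cort+/+ MCAO 3 was therefore level with the highest Cort-/- libraries, and Cort+/+ MCAO 4 and Cort-/- MCAO 3 were the lowest, as in their positions along the average response. The median difference ranged from 0.14 (without Cort+/+ MCAO 4) to 1.00 (without Cort+/+ MCAO 3) and was 0.06 without Cort+/+ CL 1 and Cort+/+ MCAO 4. The median departure from the common scale ranged from -0.02 to 0.55.

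Many promoters of these genes hold one sequence element, shown because it is a feature of the list that its levels do not use. The letters GAAA, 2 free bases and GAAA again, the core of the interferon-stimulated response element bound by complexes of interferon regulatory factors, were searched on both strands of the 250 bases before each start. They were present in 14 of the 22 list members with a promoter in the RefSeq table (63.6%), in 244 of 10215 genes above 1 RPKM (2.39%) and in 821 of 27025 promoters in all (3.04%). Capitals mark 1 match per promoter, the one nearest the start. Isg15 holds 3 matches and Ifit1, Ifit3, Oas1a and Bst2 hold 2 each, and in Isg15, Oas1a and Bst2 another begins in the lower-case letters before the capitals. Each sequence is written 5′ to 3′ on the strand of its gene, and TTTC, 2 free bases and TTTC is the same element read from the other strand (RefSeq, GRCm38.p6). Matches may overlap other motifs and are a description of letters, not of binding.
Isg15 (chr4:156200866-156200893, minus strand): aaggaaaccGAAACAGAAAatagctctg
Ifit1 (chr19:34640795-34640822, plus strand): cagtctcagTTTCAGTTTCtcactgctg
Ifit3 (chr19:34583398-34583425, plus strand): ttaagtctgTTTCAGTTTCtactttcct
Oas1a (chr5:120907526-120907548, minus strand): cgggaaatgGAAACTGAAAatct
Bst2 (chr8:71537578-71537605, minus strand): caggaaaatGAAACTGAAAggctgcagt
Rsad2 (chr12:26456554-26456581, minus strand): tggtccaacTTTCATTTTCagaaaacag
Stat2 (chr10:128270267-128270294, plus strand): gcaccctggTTTCAGTTTCctttcccta
The same letters stood before genes of unequal response: the response of Isg15 was 2.37 in Cort+/+ and 3.52 in Cort-/- mice, that of Rsad2 1.10 and 2.08, and that of Stat2 0.36 and 0.66.

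**Figure D4:**
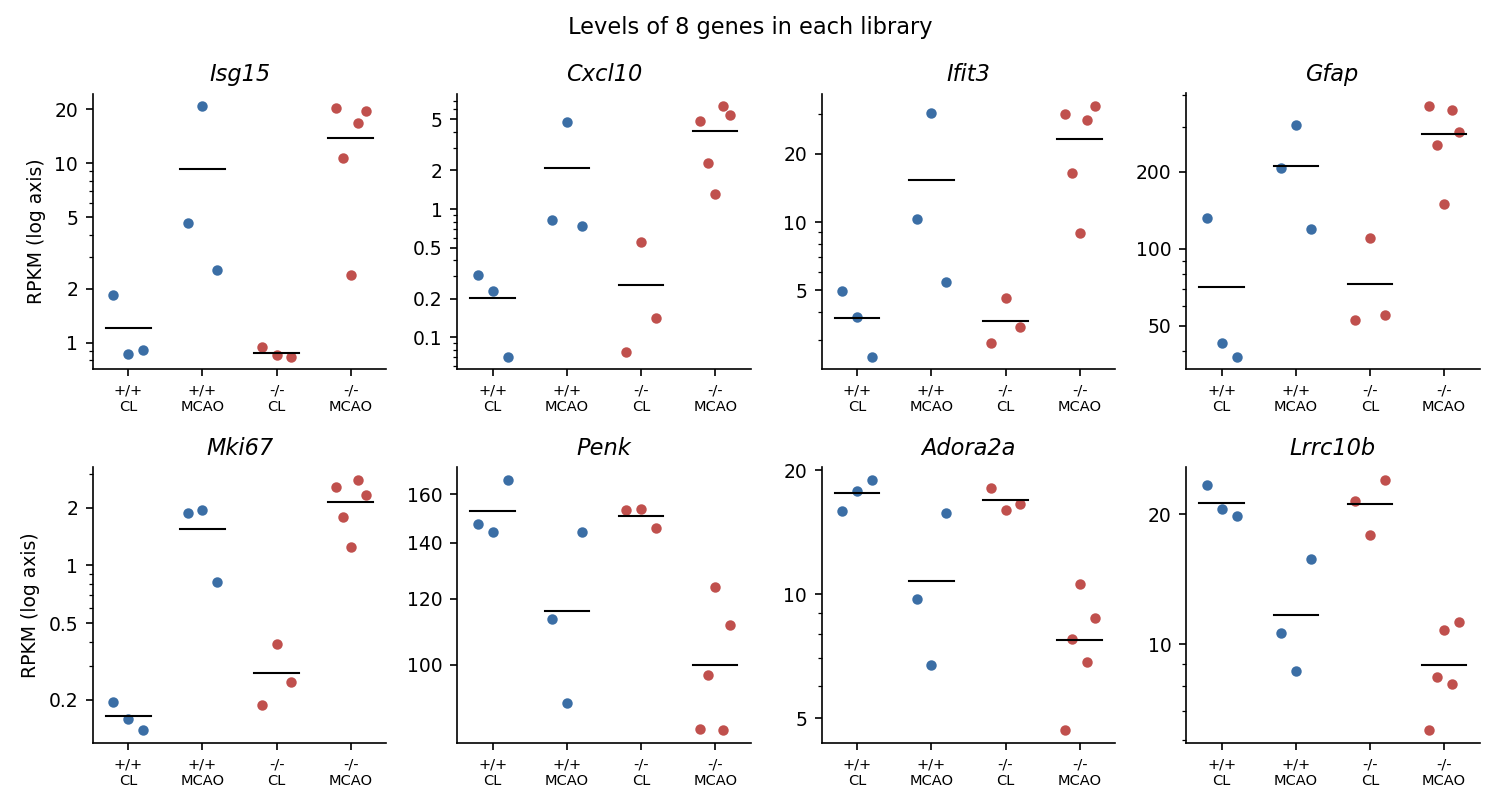
RPKM (log axis) of 8 genes in the 14 libraries by group; each point is a library and black lines are arithmetic means. Isg15, Cxcl10, Ifit3, Gfap and Mki67 have higher means in MCAO in both genotypes, with overlap between the genotypes after MCAO, and Penk, Adora2a and Lrrc10b have lower means in MCAO in both genotypes.

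Antigen presentation followed the same order with smaller differences. The 13 members of MHC class I presentation had medians of 0.58 and 0.85, 12 of them were larger in Cort-/- mice, and 6 passed limma there. B2m, the invariant chain of class I molecules, responded by 0.58 (adjusted p = 0.514) and 0.98 (limma, adjusted p = 0.0295), with a difference of 0.39 (SE 0.30). Psmb9, a subunit of the immunoproteasome, responded by 1.56 and 1.50. The 7 class II genes had medians of 0.89 and 1.00 and a median departure of -0.16, with Cd74, the invariant chain, at 1.11 and 1.61. The 3 class II genes above 1 RPKM in CL had medians of 0.60 and 0.88. The median difference of the class I list was 0.25, but 0.07 without Cort+/+ MCAO 4, 0.49 without Cort+/+ MCAO 3 and -0.01 without both Cort+/+ CL 1 and Cort+/+ MCAO 4. For class II it was 0.11, from -0.00 (without Cort-/- MCAO 1) to 0.36 without single libraries, and -0.01 without that pair.

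Chemokine genes differed in which genotype was higher. Of 20 genes, 9 reached a mean of 1 RPKM, 7 of these only through MCAO, so no median response or count of calls is read for them. The larger response was in Cort-/- mice for 6 of the 9. Cxcl10, an interferon-induced attractant of T cells, had 0.308, 0.228 and 0.0705 RPKM in Cort+/+ CL and 0.823, 4.75 and 0.744 RPKM in Cort+/+ MCAO libraries. The Cort-/- values were 0.0763, 0.554 and 0.142 RPKM in CL and 4.85, 2.30, 1.32, 6.36 and 5.44 RPKM in MCAO. Of the Cort+/+ MCAO libraries, replicate 3 lay within the Cort-/- range and the other two below it. Its response was 2.46 and 3.57, with a difference of 1.11 (SE 0.99, unadjusted p = 0.28). Ccl12, an attractant of monocytes, responded by 2.91 and 3.98, a difference of 1.08 (SE 1.06) that turned in sign without Cort+/+ CL 1 and Cort+/+ MCAO 4. Ccl4, made by activated microglia, ran the other way, with 3.45 in Cort+/+ and 2.57 in Cort-/- mice (difference -0.88, SE 0.76, unadjusted p = 0.268), and stayed negative in every alternative run, from -1.38 to -0.39 without single libraries.

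Disease-associated microglial genes had a median departure (-0.08) that stayed below 0 without each single library (-0.12 to -0.01). Those of complement and homeostatic microglia did not, and ran from -0.10 to 0.03 and from -0.24 to 0.01. The sign of a departure depends on the factor taken. Against a factor of 1, the median difference of disease-associated microglial genes was above 0, at 0.17. All 11 complement genes had the larger response in Cort-/- mice (medians 1.07 and 1.37), yet the median departure was -0.02, with 3 of 11 above 0. C1qa, a chain of the initiator C1q, responded by 1.05 and 1.34 (difference 0.29, SE 0.42), and C3ar1, the receptor for C3a, by 1.98 and 2.12. The 16 genes of disease-associated microglia had medians of 0.96 and 1.16, and 13 passed limma in Cort-/- mice. For the 11 homeostatic microglial genes the medians were 0.61 and 0.67, with 1 of 11 above the common scale. Lysosomal genes, 18 in all, had medians of 0.58 and 0.85, and 12 passed limma in Cort-/- mice. The median differences of these lists moved most with the same Cort+/+ libraries. For complement the median difference was 0.28, and it was -0.03 without Cort+/+ MCAO 4 and 0.51 without Cort+/+ MCAO 3. For disease-associated microglia it was 0.17, with -0.05 and 0.26 without these libraries, and for chemokines it was 0.24, with -0.06 and 0.46. For homeostatic microglia it was 0.02, with -0.12 and 0.12, and for lysosomal genes 0.13, with 0.01 and 0.28. Without both Cort+/+ CL 1 and Cort+/+ MCAO 4 the median difference was below 0 in all 5 of these lists (-0.25 for complement, -0.16 for disease-associated microglia, -0.06 for chemokines, -0.10 for homeostatic microglia and -0.04 for lysosomal genes).

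Reactive astrocyte genes were likewise higher in 14 of 15 members in Cort-/- mice, with medians of 1.55 and 1.91. Gfap had 132, 42.8 and 37.9 RPKM in Cort+/+ CL and 207, 304 and 120 RPKM in Cort+/+ MCAO libraries. For Cort-/- mice the levels were 53.0, 110 and 55.4 RPKM in CL and 361, 254, 149, 348 and 287 RPKM in MCAO. Cort+/+ CL 1 exceeded Cort+/+ MCAO 4, so the groups of that genotype overlapped. The response was 1.71 (SE 0.49, adjusted p = 0.319) in Cort+/+ and 1.96 (SE 0.44, limma, adjusted p = 0.0424) in Cort-/- mice, and the difference of 0.25 (SE 0.66) ranged from -0.32 to 0.59 without single libraries. Clcf1, a cytokine of the IL-6 family, responded by 2.00 and 2.53, and Timp1, an inhibitor of matrix metalloproteases, by 2.54 and 2.68. For the list, the median difference was 0.34 and the median departure was -0.04. Without single libraries the former ran from 0.01 (without Cort+/+ MCAO 4) to 0.59, and without both Cort+/+ CL 1 and Cort+/+ MCAO 4 it was -0.24. The 15 homeostatic astrocyte genes had medians of -0.02 and -0.03.

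Of the 3 genes called in Cort+/+ mice, 2 were of the mitosis list. These were Pbk, a mitotic kinase (limma, adjusted p = 0.0156), and Mki67, and the other was Tgm1. All 3 had a mean under 1 RPKM over the CL libraries and entered the set only through MCAO. Their calls therefore describe what the filter admits. The calls did not hold throughout, since 0 genes passed in Cort+/+ mice with a pseudocount of 1 or with the replicate block, and 1 without any of 6 single libraries (up to 94 without Cort+/+ MCAO 4). Of the 22 mitosis genes 8 reached a mean of 1 RPKM, 7 of them only through MCAO, so their median response and calls are not read. Mki67, a marker of cycling cells, had 0.194, 0.158 and 0.139 RPKM in Cort+/+ CL and 1.88, 1.95 and 0.819 RPKM in Cort+/+ MCAO libraries. In Cort-/- mice it had 0.187, 0.392 and 0.246 RPKM in CL and 2.56, 1.79, 1.25, 2.80 and 2.34 RPKM in MCAO. CL and MCAO did not overlap in either genotype. Mki67 responded by 2.56 (SE 0.34, limma, adjusted p = 0.0471) and 2.57 (SE 0.30, adjusted p = 0.00579), with a difference of 0.01 (SE 0.45). Top2a, the topoisomerase of dividing cells, responded by 2.54 in each. Over the 8 genes the median departure was -0.18 (-0.30 to -0.05 without single libraries), and for the same reason it is not read. A departure also depends on the factor taken, and over all 46 genes with an average response above 2 its median was -0.19. The median difference of 0.15 was -0.21 without Cort+/+ MCAO 4 and 0.34 without Cort+/+ MCAO 3. The 14 DNA replication genes had medians of 0.69 and 0.84, but the 9 above 1 RPKM in CL had medians of 0.33 and 0.46. The median difference of 0.17 over the 14 was -0.02 without Cort+/+ MCAO 4 and 0.27 without Cort+/+ MCAO 3. Without both Cort+/+ CL 1 and Cort+/+ MCAO 4 it was -0.07.

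**Figure D5:**
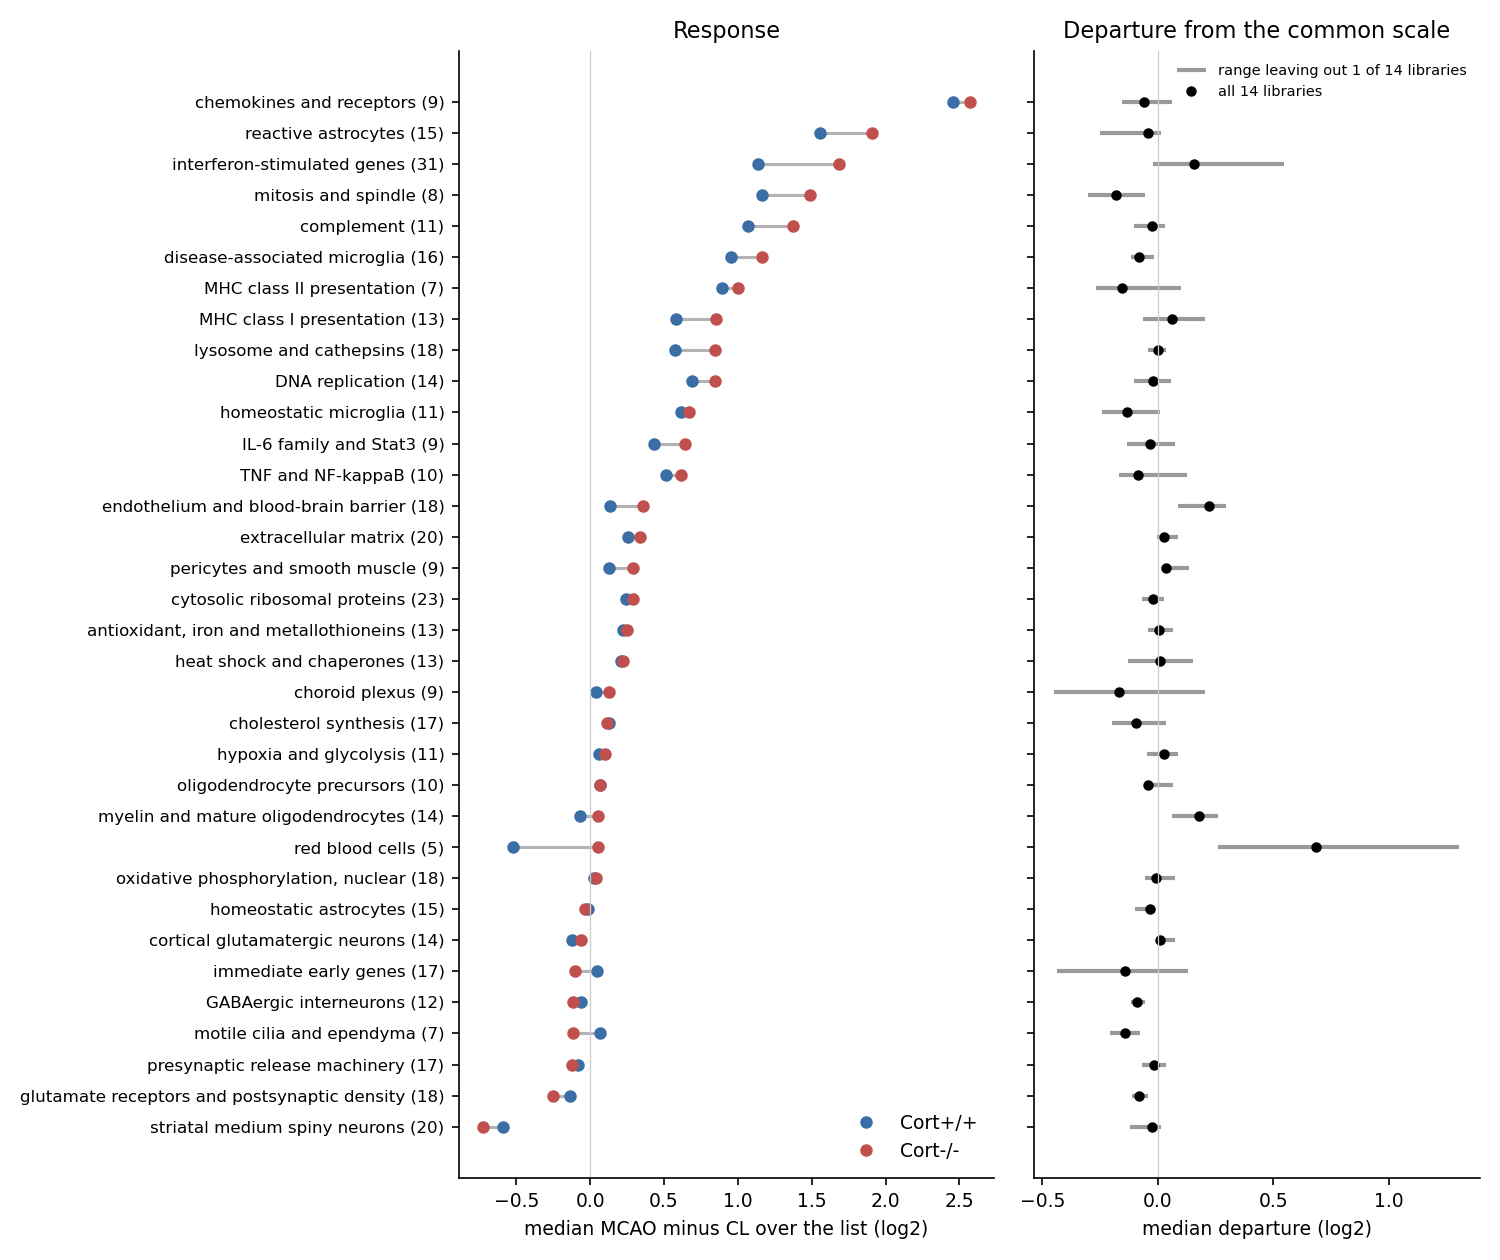
Left, median ischemic response of each gene list with at least 5 members in Cort+/+ and Cort-/- mice (log2 units); right, median departure from the common scale, with the range without single libraries. Interferon-stimulated genes lie at 0.16, endothelial genes at 0.22, myelin genes at 0.18 and mitosis genes at -0.18; most chemokine and mitosis members passed the filter only through MCAO.

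The lowest list medians of the lists with at least 5 members were those of striatal neurons. All 20 genes of striatal medium spiny neurons had the lower value in Cort-/- mice (medians -0.59 and -0.72, median difference -0.19), 15 fell in Cort-/- mice by limma and none in Cort+/+ mice, and 7 of 20 lay above the common scale. Adora2a, the adenosine receptor of the indirect striatal pathway, had 15.9, 17.8 and 19.0 RPKM in Cort+/+ CL and 9.74, 6.75 and 15.8 RPKM in Cort+/+ MCAO libraries. Cort-/- libraries held 18.1, 16.02 and 16.6 RPKM in CL and 4.67, 7.78, 10.6, 6.84 and 8.75 RPKM in MCAO. Every MCAO library lay under every CL library, Cort+/+ MCAO 4 only just, and the genotypes overlapped within MCAO. The response was -0.78 (SE 0.28, adjusted p = 0.466) and -1.17 (SE 0.25, limma, adjusted p = 0.0392), a difference of -0.38 (SE 0.38, unadjusted p = 0.335).

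Lrrc10b, a leucine-rich repeat gene outside the list and among the 8 lowest responses, had 23.3, 20.5 and 19.8 RPKM in Cort+/+ CL and 10.6, 8.65 and 15.8 RPKM in Cort+/+ MCAO libraries. Its levels in Cort-/- mice were 21.4, 17.9 and 24.1 RPKM in CL and 6.33, 8.38, 10.8, 8.08 and 11.2 RPKM in MCAO. Its response was -0.90 and -1.25 (difference -0.35, SE 0.30, unadjusted p = 0.269). Penk, the enkephalin precursor, had responses of -0.42 and -0.61 and did not pass in either genotype. Cd4, the co-receptor of helper T cells, had responses of -1.23 and -1.53 (limma, adjusted p = 0.0332 in Cort-/- mice). The summed T cell markers did not fall with it. They stood at 1.00 to 1.13 RPKM in Cort+/+ CL and 1.65 to 1.67 RPKM in Cort+/+ MCAO, and overlapped between CL and MCAO in Cort-/- mice. Ptprv, a receptor phosphatase, had responses of -1.08 and -1.29 (limma, adjusted p = 0.016 in Cort-/- mice).

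The striatal list moved with the libraries. Its mean log2 level was 4.09, 3.83 and 4.45 in Cort+/+ MCAO and 3.58, 3.92, 4.18, 3.75 and 4.07 in Cort-/- MCAO libraries, from 4.57 to 4.72 in CL. Cort+/+ MCAO 4 was the highest of the MCAO libraries, and Cort-/- MCAO 3 the highest of its genotype. The median difference was -0.05 without Cort+/+ MCAO 4, -0.33 without Cort+/+ MCAO 3 and -0.00 without both Cort+/+ CL 1 and Cort+/+ MCAO 4. The 18 genes of glutamate receptors and the postsynaptic density had medians of -0.13 and -0.25, with the lower value in Cort-/- mice for all 18. Among all genes with an average response between -0.25 and -0.1, 68.8% moved further in Cort-/- mice. The median difference of the list ranged from -0.16 to -0.07 without single libraries and was -0.05 without both Cort+/+ CL 1 and Cort+/+ MCAO 4. Of the 18 genes, 3 fell in Cort-/- mice by limma, among them Camk2a, the synaptic kinase (-0.21 and -0.29, adjusted p = 0.047). Shank3, a scaffold protein, had responses of -0.21 and -0.46 (difference -0.25, SE 0.19). The 14 cortical glutamatergic genes had medians of -0.12 and -0.06.

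In the lists of at least 5 members named next, the median departure stayed above 0 without each single library: endothelium, pericytes, myelin and red blood cells. The 18 endothelial genes had medians of 0.14 and 0.36, 16 had the larger value in Cort-/- mice and 14 lay above the common scale (median departure 0.22). The median difference of 0.29 stayed between 0.17 and 0.33 without single libraries, was 0.12 without Cort+/+ CL 1 and Cort+/+ MCAO 4 and 0.02 with the replicate block. The difference came with one between the CL groups: the mean log2 level of the list was 2.47 in Cort+/+ CL and 2.27 in Cort-/- CL, with overlap in 1 library of each, against 2.60 and 2.62 in MCAO. Cort-/- MCAO 4 stood apart at 2.84 against 2.54 to 2.62 in the other libraries of its group, and without it the median difference was 0.22. In this list 3 genes had an unadjusted p under 0.05, and they are named here after their values were seen: Kdr (0.78, SE 0.25, unadjusted p = 0.00716), Flt1 (0.38, SE 0.16, unadjusted p = 0.0311) and Tek (0.33, SE 0.15, unadjusted p = 0.0412), all receptors for vascular growth factors. None passed limma after adjustment.

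Kdr had 2.60, 2.20 and 2.15 RPKM in Cort+/+ CL and 2.27, 2.05 and 2.44 RPKM in Cort+/+ MCAO libraries. The Cort-/- values were 1.41, 1.21 and 0.918 RPKM in CL and 2.28, 1.80, 2.26, 2.45 and 1.48 RPKM in MCAO. The Cort-/- CL libraries were the lowest of all 14, and after MCAO the genotypes overlapped, so that the difference of differences came with a difference between the CL groups. The response was -0.04 in Cort+/+ (adjusted p = 1.00) and 0.75 in Cort-/- mice (limma, adjusted p = 0.0396).

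Myelin genes showed a small difference in the same direction in all 14 members (medians -0.07 and 0.05, median difference 0.16, median departure 0.18), which held without each single library (0.08 to 0.22). Here too the CL groups differed, with a mean log2 level of 5.57 in Cort+/+ CL and 5.42 in Cort-/- CL against 5.49 and 5.48 in MCAO, and the CL libraries of the genotypes overlapped. Mbp, the myelin basic protein, had responses of -0.23 and -0.04 (difference 0.19, SE 0.11, unadjusted p = 0.107). None of the 14 passed limma in any of the contrasts. The 5 red blood cell genes had medians of -0.52 and 0.05, and Hbb-bs, an adult beta globin whose reads may be shared with its close copy Hbb-bt, had 194, 77.9 and 135 RPKM in Cort+/+ CL against 54.6, 86.5 and 77.9 RPKM in Cort-/- CL libraries, with overlap in 1 Cort+/+ library. The 9 genes of pericytes and smooth muscle had medians of 0.13 and 0.29, with Tagln, an actin-binding protein of contractile cells, at 1.22 and 1.42 (limma, adjusted p = 0.0817 and 0.00596). The part of blood content in the endothelial difference was not tested. Somatostatin receptors, which also bind cortistatin, were measurable in 4 genes with medians of 0.06 and -0.09, and none had an unadjusted p under 0.05 for the difference of differences.

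Lists of general cell function had small medians in both genotypes. Nuclear genes of oxidative phosphorylation (18 genes) had medians of 0.03 and 0.04, hypoxia and glycolysis genes (11) 0.06 and 0.10, heat shock genes (13) 0.21 and 0.22, and cytosolic ribosomal proteins (23) 0.24 and 0.29. Cholesterol synthesis genes (17) had medians of 0.13 and 0.12, and 16 of them lay under the common scale. The 12 interneuron genes had medians of -0.06 and -0.11, the 20 extracellular matrix genes 0.26 and 0.34, and the 7 genes of motile cilia 0.07 and -0.12, the last with the lower value in Cort-/- mice for all 7. The 15 extracellular matrix genes above 1 RPKM in CL had medians of 0.12 and 0.15. Immediate early genes (17) had medians of 0.05 and -0.10, but their median difference of -0.13 ran from -0.39 without Cort-/- CL 2 to 0.14 without Cort+/+ CL 1. The sign of the median difference also turned without single libraries for oxidative phosphorylation, ribosomal proteins, cholesterol synthesis, cortical glutamatergic neurons, homeostatic astrocytes and somatostatin receptors. Among immediate early genes, Atf3, a stress-induced factor, responded by 1.70 and 2.31 (limma, adjusted p = 0.275 and 0.0169). It had a mean under 1 RPKM over the CL libraries, so its rise and its call describe what the filter admits.

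The single genes with the lowest p for the difference of differences were below 1 in size where reads were many. Pstpip2, an adaptor of myeloid cells that restrains inflammasome activity, had 5.05, 5.05 and 4.84 RPKM in Cort+/+ CL and 3.94, 4.46 and 4.14 RPKM in Cort+/+ MCAO libraries. For Cort-/- mice the levels were 4.50, 4.25 and 4.61 RPKM in CL and 4.71, 4.96, 5.0, 4.66 and 5.23 RPKM in MCAO. Within each genotype CL and MCAO did not overlap, and the directions were opposite. Its response was -0.25 (SE 0.06) and 0.14 (SE 0.06), with a difference of 0.39 (SE 0.09, unadjusted p = 0.000601, adjusted p = 1.00 by limma) that stayed between 0.35 and 0.43 without single libraries.

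Dcps, a scavenger enzyme of mRNA caps, had 7.96, 7.83 and 7.33 RPKM in Cort+/+ CL and 8.22, 7.99 and 8.06 RPKM in Cort+/+ MCAO libraries, and in Cort-/- mice 6.06, 6.42 and 6.98 RPKM in CL and 9.18, 8.90, 8.06, 8.04 and 8.32 RPKM in MCAO. As for Kdr, the lowest libraries were those of Cort-/- CL. Its response was 0.07 and 0.39 (difference 0.32, SE 0.09, unadjusted p = 0.00376). Mir147 was annotated with few reads, 4, 8 and 5 in Cort+/+ CL, 4, 7 and 5 in Cort+/+ MCAO, 1, 4 and 3 in Cort-/- CL and 26, 19, 6, 40 and 9 in Cort-/- MCAO libraries. Its difference was 2.51 (SE 0.73, unadjusted p = 0.00431), and since it overlaps AA467197 on the same strand, its reads cannot be told from those of that gene.

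In the other direction, Lars2, the mitochondrial leucyl-tRNA synthetase, had 88.7, 52.1 and 73.0 RPKM in Cort+/+ CL and 96.8, 111 and 119 RPKM in Cort+/+ MCAO libraries. In Cort-/- mice it had 102, 97.9 and 89.6 RPKM in CL and 93.3, 76.2, 52.0, 81.5 and 88.9 RPKM in MCAO. Within Cort+/+ mice MCAO exceeded CL, and within Cort-/- mice 1 MCAO library lay inside the CL range. The responses were 0.64 and -0.33, with a difference of -0.97 (SE 0.28, unadjusted p = 0.00406). Trh, the precursor of thyrotropin-releasing hormone, had 5.89, 6.58 and 5.17 RPKM in Cort+/+ CL and 8.78, 7.33 and 11.0 RPKM in Cort+/+ MCAO libraries, and in Cort-/- mice 7.44, 12.1 and 9.46 RPKM in CL and 9.18, 7.55, 9.08, 5.33 and 7.28 RPKM in MCAO. Its difference was -0.93 (SE 0.29, unadjusted p = 0.00689). Pstpip2, Dcps, Mir147, Lars2 and Trh kept their sign in every alternative run, and none passed adjustment. They were chosen for the lowest p in these same data, so a stable sign and little overlap partly follow from the choice.

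Pstpip2 and Lars2 had responses of opposite sign in the genotypes. Of the 6 genes in which the smaller of the opposite responses was largest, 4 are microRNA genes and 1 is a mitochondrial tRNA, whose short transcripts leave few reads. The other is Oxt, the precursor of oxytocin, with 22.8, 16.2 and 2.74 RPKM in Cort+/+ CL and 16.3, 15.1 and 28.3 RPKM in Cort+/+ MCAO libraries, and in Cort-/- mice 17.7, 29.8 and 24.7 RPKM in CL and 22.3, 18.3, 19.3, 2.10 and 8.99 RPKM in MCAO. Cort+/+ CL 3 and Cort-/- MCAO 4 were the lowest libraries, beside responses of 0.91 and -1.11 (difference -2.02, SE 1.13, unadjusted p = 0.0982). The difference ranged from -2.60 to -1.10 without single libraries.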

How the data were processed

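Polyadenylated RNA of mouse brain hemispheres was sequenced as stranded libraries in 4 groups (14 libraries). The authors aligned the reads to GRCm39 with GENCODE M28 and deposited 1 table of RPKM values, and the study's own tests used edgeR. The gene lengths and library sizes behind the RPKM are not given in the sources used here. Every value above 0 was a whole multiple of the value of 1 read (100% of 495656 within a tolerance of 0.0001), and these recovered reads served the voom alternative. No read count was tested as the main result, since RPKM are not counts.

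Values were analysed as log2(RPKM + 0.1), which understates changes of weakly expressed genes. Genes above 0 in at least 2 libraries (46102) were fitted with limma 3.58.1 (trend) in R 4.3.3, with 1 mean per group and a shared spread, and p-values were adjusted by Benjamini-Hochberg over all of them. Contrasts were MCAO minus CL in each genotype, their difference, and the departure from a common scale, the Deming factor being taken as fixed. Summaries used Python 3.11.15 and matplotlib 3.10.9. The study's methods describe the replicates of a group as biologically independent. Named genes were Cort, the 8 largest rises and falls, the 6 lowest p in each direction for each of the 2 tests, the 6 of opposite sign, and per list the 2 most responsive members and the most abundant. Members, gene lists and named-gene rules were chosen with earlier results of these data known, and the permutation test of positions and the split of list members by CL level were added after the data were seen. Coordinates of Cort are from GENCODE on GRCm39, in a later release than M28. In data simulated for the departure test (15063 genes, true factor 1.3), the factor came out at 1.273, and 73 of 100 genes changed 2-fold and 92 of 100 changed 4-fold were called, with 12 unchanged genes. The simulation holds no shared variation between libraries. It was fitted and adjusted over the 15063 genes alone, and only genes of at least 100 mean reads were changed. The main test was adjusted over 46102 genes of any depth, so the simulated share of calls does not carry over to it. Alternatives were other pseudocounts, filters, scalings, array weights, voom, a replicate block, and fits without single libraries. Some genes that the naming rule selects are not reported here.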

Additional observations from a re-analysis of the deposited data

Results flagged for a closer look

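In the groups of 5 libraries, 78 sets of values were searched for a library far from the other four, and 4 were found, where chance gives about 1 in 20. The endothelial list had a mean log2 level of 2.84 in Cort-/- MCAO 4 against 2.54 to 2.62 in the other Cort-/- MCAO libraries, a gap of 0.748 of the range. The oligodendrocyte precursor list stood in that library at 3.56 against 3.70 to 3.74 (gap 0.77 of the range). Ctsk, the gene of cathepsin K, stood at 1.52 in the same library against 1.01 to 1.14 (gap 0.759). Mir6926 stood at -1.05 in Cort-/- MCAO 5 against 0.54 to 1.09 (gap 0.743), at few reads.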

How the results depend on the processing

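The common scale factor of the ischemic response was 0.857 with a replicate block, which uses the 10 libraries whose number occurs in both CL and MCAO of a genotype. Over genes lower in MCAO it was 2.30, but poorly determined, as their responses correlated at only 0.166. The factor ran from 1.05 to 1.59 without single libraries. Libraries of the same number had correlations of deviations from -0.239 to 0.316, and 1 of 5 was best with its own number. With so few libraries per group, these values cannot decide whether equal numbers share an animal. With the block no gene was called in either genotype (0 and 0) and 72.0% had the same sign. The correlation of the ischemic responses was 0.383 with no filter on RPKM and 0.909 with at least 100 reads, and 0.663 to 0.787 without single libraries. Same-sign genes were 60.1% without the filter, 68.4% to 76.6% without single libraries and 72.8% without Cort-/- CL 2 and MCAO 3. The difference in position was -0.00762 without Cort+/+ MCAO 4 (up to 0.318 without single libraries) and -0.142 without Cort+/+ CL 1 and Cort+/+ MCAO 4. Without the filter, 1 gene passed for the difference of differences and 1 for the departure. It had at most 1 read per library. Genes responding to MCAO in Cort+/+ mice numbered 0 with a pseudocount of 1, 14 with 0.01, 0 at 5 RPKM or more, 5 without a filter, 7 after rescaling to TPM, 8 after quantile normalization, 25 in a fit over genes of at least 1 RPKM alone, 5 with array weights, 35 with voom, 13 without Cort+/+ CL 1 and Cort-/- CL 2, 92 without Cort+/+ CL 1 and MCAO 4, 17 without Cort-/- CL 2 and MCAO 3, and 1 to 94 without single libraries. Genes responding to MCAO in Cort-/- mice numbered 332 at 5 RPKM or more, 189 without Cort+/+ CL 1 and Cort-/- CL 2, 1190 in the fit over those genes alone, 1015 with array weights, 1042 with voom, and 80 to 893 without single libraries. The cause of these shifts was not tested beyond the libraries and genes each setting removes. Of 2270 list medians under alternatives, 80 moved by at least the spread between libraries.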
